A study of Mus musculus with 44 samples.

Results

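Mouse embryonic stem (ES) cells that carry Hex at the Rosa26 locus in its recombined state were set against wild-type ES cells of the same parental line. The comparison holds the 4 arrays whose titles name recombined Hex and the 4 whose titles name wild-type CGR8.8 cells, 8 of the 44 arrays of the series. Each array is an Affymetrix MG-U74Av2 GeneChip hybridised with biotin-labelled total RNA. The other arrays of the series hold cells with unrecombined Hex, or with the fusion HexERTVP2 at the same locus, and were used only for levels given beside a result. The 28 HexERTVP2 arrays used pool different clones, recombined and unrecombined cells, and cells with and without 4-OHT treatment.

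Recombined Hex cells have Hex inserted at Rosa26 and have undergone recombination. Unrecombined Hex cells (4 arrays) have the same insertion before that step. Wild-type cells carry no insertion that the labels name. All groups share the parental line CGR8, clone cgr8.8, and none of the 8 arrays is labelled with a treatment. The labels name no clone number, recombinase or selection for the Hex lines, and do not say whether the arrays of a group were separate cultures. The p-values therefore measure only the spread between these arrays, and their number, 4 a group, limits the precision.

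Hex, whose gene is Hhex, is a homeodomain protein that acts mostly as a transcriptional repressor, in part by recruiting co-repressors of the Groucho/TLE family. In the mouse embryo it is an early marker of the anterior visceral endoderm and later of anterior definitive endoderm and endothelial precursors, and it is needed for development of the forebrain, liver and thyroid. Rosa26 is a broadly active locus on chromosome 6 that is widely used for inserted genes. The study asked which genes Hex regulates in ES cells, with the co-repressor gene Tle4 and the secreted factor gene Nodal among those of interest.

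The 8 arrays had median intensities between 106.8 and 112.3 on the linear scale, and Pearson correlations of log2 intensities between 0.976 and 0.996. Array 3 of recombined Hex had the narrowest spread of log2 intensities (SD 1.79, against up to 1.97 on wild-type array 3). The log2 ratio of the 3′ to the 5′ probe set of β-actin, which reads RNA integrity and labelling, was 1.32, 0.62, 1.70 and 0.94 in recombined cells and 1.33, 1.06, 0.85 and 1.55 in wild-type cells, so the groups overlapped. The same ratio of GAPDH was 0.39, 0.30, 1.08 and 0.61 in recombined cells and 0.95, 0.79, 0.69 and 0.999 in wild-type cells, so 3 of the 4 recombined arrays lay below every wild-type array and 1 above. Its part in the results was not tested. All 6 markers of undifferentiated ES cells measured (Pou5f1, Sox2, Nanog, Zfp42, Utf1 and Fgf4) lay above the median probe set, with group means of 9.94 to 11.52, and 0 of the 6 passed the test. Array 2 of unrecombined Hex stood apart, with an SD of 1.60 and a β-actin ratio of 2.24, and values of unrecombined cells are given without it unless stated. That choice matters: recombined against unrecombined cells, 47 of 12422 probe sets (0.378%) were called with all 12 arrays of the recombined, unrecombined and wild-type groups, and 851 (6.85%, with 2.14% higher and 4.71% lower) without array 2. A call against unrecombined cells that ended with array 2 kept is given with that value.

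Between recombined Hex and wild-type cells, 48 of 12422 probe sets (0.386%) passed the test, 14 of them higher (0.113%) and 34 lower (0.274%) in recombined cells. The test was limma's moderated test on log2 intensities, two-sided, with Benjamini-Hochberg adjustment over all probe sets and a threshold of 0.05. All adjusted p-values below come from it, and each error of a log2 difference is its standard error (SE). The 48 stand for 13 genes that rose and 32 that fell by 1 symbol each, and 2 probe sets that carry several symbols. The sizes were small: 9 probe sets differed by at least 1 on the log2 scale, and the smallest called difference was 0.38. In every one of the 48 the arrays of the groups did not overlap, but that also held for 10.3% of all probe sets (4.81% higher and 5.46% lower). At an unadjusted p under 0.05 there were 694 probe sets higher (5.59%) and 1110 lower (8.94%). Counted by gene, with the brightest probe set for each, 0.497% of 8251 genes were called, and at an unadjusted p under 0.05 5.58% were higher and 10.9% lower; the counts of each gene list below stand against these shares.

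The count depended on single arrays. It was 36, 27, 28 and 28 without recombined array 1, 2, 3 or 4, and 20, 20, 45 and 16 without wild-type array 1, 2, 3 or 4. Each of these fits also held fewer arrays than the main one. With each array centred on its median, 71 probe sets passed, 13 higher (18.3%) and 58 lower, where 29.2% of the 48 were higher. Of the 48, 16 passed with any 1 of the 8 arrays left out. They were the probe sets of Hprt, Gt(ROSA)26Sor, Thumpd3, Cdkn1c, Mest, Sfmbt2, Rhox5, Calml4, Tfpi, Myh9, Fgfr2, Tcstv1, Gm20767, AF067061, Gm4802 and one shared by Xlr3a, Xlr3b and Xlr3c.

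**Figure D1:**
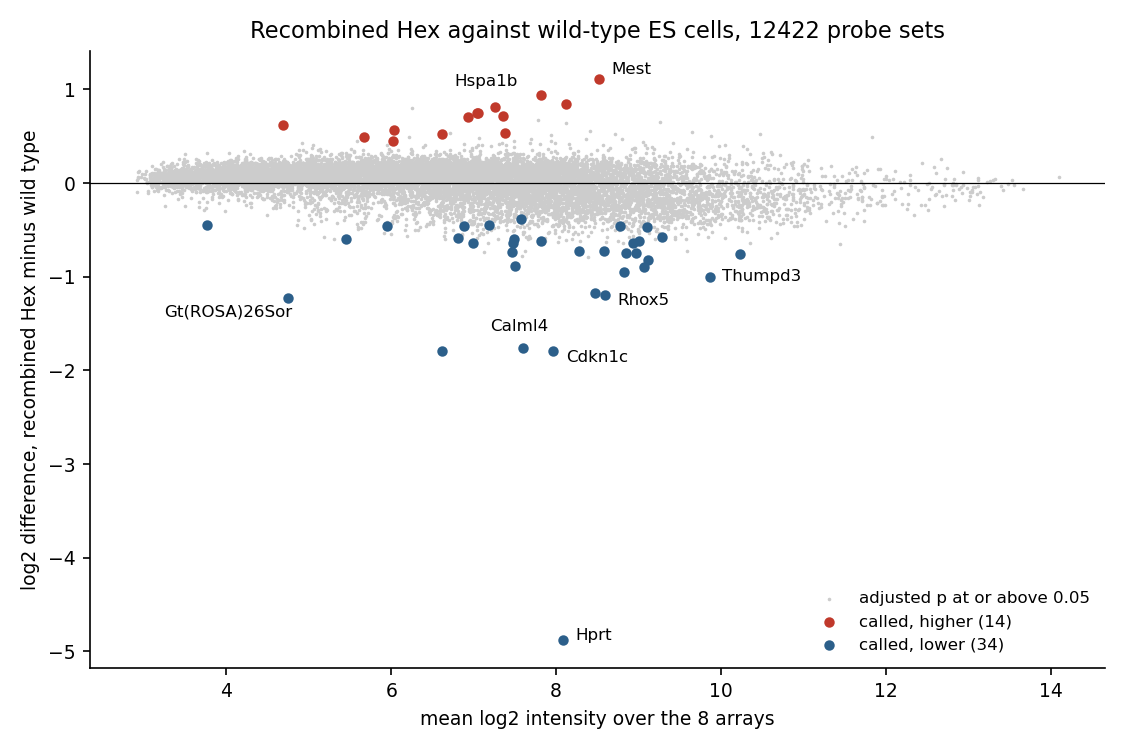
Log2 difference of recombined Hex minus wild type (vertical axis) against the mean log2 intensity over the 8 arrays (horizontal axis) for 12422 probe sets. Grey points did not pass the test, red points are the 14 called higher and blue points the 34 called lower; Hprt, at -4.88, lies far below every other point.

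Hprt, the X-linked gene of the enzyme that salvages hypoxanthine and guanine for purine nucleotides, had the largest difference. Its log2 intensity was 5.58, 5.72, 5.61 and 5.66 on the recombined arrays, against 10.66, 10.61, 10.27 and 10.53 on the wild-type arrays. Every recombined array was low and every wild-type array high, with no overlap. The difference was -4.88 (SE 0.09, adjusted p = 1.10e-09), a 29.4-fold lower intensity in recombined cells. Unrecombined Hex cells were also low, at 5.60, 5.34 and 5.84 on arrays 1, 3 and 4 and 6.58 on array 2. Recombined and unrecombined cells differed by 0.05 (SE 0.12, 95% interval -0.21 to 0.31). The 28 arrays of HexERTVP2 cells lay between 10.13 and 10.77, at the wild-type level.

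The other 11 measured genes of purine synthesis and salvage did not pass, so 0 of 12 rose and 1 fell. Among them the values were lowest in Adsl (-0.41, adjusted p = 0.319), of the enzyme adenylosuccinate lyase, and highest in Impdh1 (0.39, adjusted p = 0.368), of an IMP dehydrogenase. Aprt, the adenine counterpart of Hprt, had a difference of 0.21 (adjusted p = 0.372). The median over the 12 genes was -0.23, against 0.04 over all genes measured. At an unadjusted p under 0.05, 2 of the 12 were higher and 6 lower, Hprt included.

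At the insertion site, Gt(ROSA)26Sor, the noncoding transcript of the Rosa26 locus, read 4.20, 3.95, 4.23 and 4.15 in recombined cells, against 5.54, 5.44, 5.14 and 5.32 in wild-type cells. The recombined arrays were all lower, by 1.23 on average (SE 0.10, 2.34-fold lower, adjusted p = 0.000850). Both groups were below the median probe set, at 6.77, so the transcript was read at a low intensity. Unrecombined cells were nearer to wild type, at 5.29, 4.85 and 5.31, and recombined cells were lower than they by 1.02 (SE 0.13, adjusted p = 0.000909). The call held with array 2 kept (adjusted p = 0.0170). The 28 HexERTVP2 arrays, which also carry an insertion at Rosa26, ranged from 4.11 to 4.81.

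Some genes beside the locus were lower as well. Thumpd3, which encodes a tRNA methyltransferase and overlaps Gt(ROSA)26Sor in the RefSeq annotation, read 9.41, 9.18, 9.60 and 9.26 in recombined cells, against 10.36, 10.46, 10.28 and 10.36 in wild-type cells. No array overlapped, and the difference was -1.0 (SE 0.10, 2.0-fold lower, adjusted p = 0.00182). How far its probe set can be told apart from the overlapping transcript was not tested. Jagn1, of an endoplasmic reticulum protein needed by neutrophils, read 8.37, 8.67, 7.96 and 8.37 in recombined cells, against 9.30, 9.32, 9.39 and 9.17 in wild-type cells. Its fall of 0.95 (log2) had an SE of 0.13 and an adjusted p of 0.0140, with no overlap. Brk1, of a subunit of the actin-regulating WAVE complex, read 9.73, 10.06, 9.63 and 9.99 in recombined cells, against 10.43, 10.56, 10.81 and 10.64 in wild-type cells. It fell by 0.76 (SE 0.12, adjusted p = 0.0278), again with no overlap. Tamm41, of a mitochondrial enzyme of cardiolipin synthesis, fell by 0.64 (SE 0.10, adjusted p = 0.0283). With 1 of the 8 arrays left out Jagn1 kept its call in 4 of 8 fits, and Brk1 and Tamm41 in 1 each.

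Counted by their order among the measured genes of chromosome 6 in the RefSeq table, Thumpd3 lay at place -1, Jagn1 at 5, Brk1 at 7 and Tamm41 at 14 from Gt(ROSA)26Sor. Emc3, of a subunit of the endoplasmic reticulum membrane complex (place 6; -0.68, SE 0.13, adjusted p = 0.0625), and Sec13, of a coat and nuclear pore protein (place 10; -0.73, SE 0.17, adjusted p = 0.119), were lower without overlap but did not pass. Among the nearest 5 genes on each side 2 of 10 fell, among the nearest 10 on each side 3 of 20, and among the nearest 25 on each side 4 of 50. In each of these windows 0 genes rose, and the median differences were near 0, at -0.09, -0.03 and 0.005 in the same order. Genes above the median probe set had medians of -0.36, -0.52 and -0.29, against -0.01 over all probe sets above it. Of such genes 4 of 5, 8 of 10 and 16 of 22 were lower. Among all genes of the windows 3, 7 and 13 were lower without overlap, and 1, 1 and 2 higher. Of all genes measured, 6.54% were lower and 4.84% higher without overlap. These windows, and Jagn1, Emc3, Sec13, Brk1 and Tamm41 as neighbours, were chosen after the values were seen, so the counts are descriptions. Chromosome 6 held 9 of the called probe sets among 653 (1.38%), 8 of them lower, where 0.426% of the probe sets on the 19 autosomes and X were called. Of these 9, the probe sets of Mest, Ggct, Bms1 and Wnk1 lay outside the nearest 25 genes on each side. Chromosome 13 had a similar share, with 5 called among 381 (1.31%). In the Rosa26 neighbour list, with 3 genes measured, Thumpd3 and Gt(ROSA)26Sor fell and Mtmr14, of a phosphoinositide phosphatase, had a difference of -0.36 (adjusted p = 0.341).

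**Figure D2:**
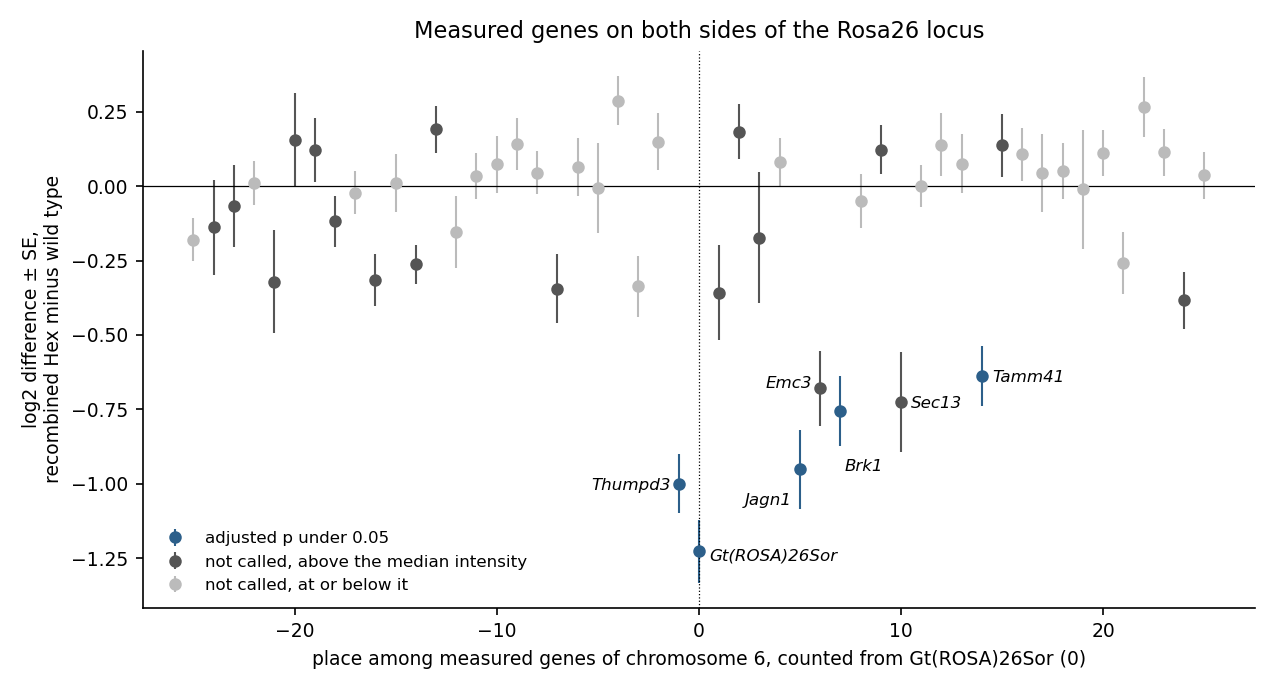
Log2 difference of recombined Hex minus wild type with its SE (bars) for the 25 nearest measured genes on each side of Gt(ROSA)26Sor, in chromosome order. Blue points passed the test; the values from place 5 to place 14 that lie below -0.6 are Jagn1, Emc3, Brk1, Sec13 and Tamm41.

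Before recombination, Thumpd3 and Jagn1 read near the recombined level, while Brk1 and Tamm41 lay between the recombined and wild-type levels. Thumpd3 averaged 9.36 ± 0.19 in recombined cells (SD, n = 4), against 9.47 ± 0.11 in unrecombined cells (SD, n = 3), a difference of -0.11 (95% interval -0.33 to 0.11). Jagn1 averaged 8.34 ± 0.29 in recombined cells and 8.35 ± 0.07 in unrecombined cells, a difference of -0.01 (95% interval -0.29 to 0.27). Brk1 averaged 9.85 ± 0.20 in recombined cells and 10.19 ± 0.04 in unrecombined cells, a difference of -0.33 (95% interval -0.58 to -0.09, adjusted p = 0.110). Tamm41 averaged 6.67 ± 0.03 in recombined cells and 6.90 ± 0.10 in unrecombined cells, a difference of -0.22 (95% interval -0.44 to -0.005, adjusted p = 0.233). The intervals of Brk1 and Tamm41 did not include 0, but neither passed after adjustment. With array 2 kept, the differences were 0.17 for Thumpd3, 0.33 for Jagn1, 0.014 for Brk1 and 0.069 for Tamm41. In the 28 HexERTVP2 arrays the medians were 9.34 for Thumpd3, 8.43 for Jagn1 and 9.94 for Brk1. In all 3 genes these medians were below the lowest wild-type array.

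Imprinted genes are active from the maternal or the paternal copy only. Among probe sets with 1 symbol, such genes had the largest rise and, after Hprt, the largest fall. Cdkn1c, which encodes the cyclin-dependent kinase inhibitor p57 and is expressed from the maternal copy, read 7.59, 6.96, 6.90 and 6.84 in recombined cells, against 8.95, 9.08, 8.69 and 8.74 in wild-type cells. Recombined array 1 was the highest of its group, but all 4 lay below every wild-type array. The difference was -1.79 (SE 0.16, 3.46-fold lower, adjusted p = 0.00127). Unrecombined cells read 8.84, 8.83 and 8.8, within the wild-type range, and recombined cells were lower than they by 1.75 (SE 0.16, adjusted p = 7.79e-05). With array 2 kept the difference of Cdkn1c was -1.37 and did not pass (adjusted p = 0.130).

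Mest, of a hydrolase-like protein expressed from the paternal copy, had the largest rise. It read 9.0, 9.0, 8.90 and 9.40 in recombined cells, against 7.99, 7.82, 7.96 and 8.08 in wild-type cells, with no overlap. The difference was 1.11 (SE 0.11, 2.16-fold higher, adjusted p = 0.00182). Unrecombined cells lay between the groups, at 8.38, 8.46 and 8.58, and recombined cells exceeded them by 0.60 (SE 0.11, adjusted p = 0.00832). With array 2 kept that difference was 1.07 and did not pass (adjusted p = 0.373). Over the 28 HexERTVP2 arrays Mest ranged from 6.05 to 9.66 and Cdkn1c from 7.70 to 10.07. These arrays pool clones, recombination states and treatments, so the width of their range cannot be compared with that of a single group.

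Sfmbt2, a Polycomb-related gene that is imprinted in mouse extraembryonic tissue, read 7.95, 7.72, 7.90 and 7.97 in recombined cells, against 9.30, 8.94, 8.76 and 9.23 in wild-type cells. It was lower on every recombined array, by 1.17 (SE 0.12, adjusted p = 0.00210), and unrecombined cells averaged 8.87. Its probe set is of a type that Affymetrix marks as shared within a sequence family. Of the 27 measured genes of the imprinted list, which does not hold Sfmbt2, 1 rose and 1 fell, and the median difference was 0.02, against 0.04 over all genes. Meg3, a maternally expressed noncoding RNA, had a difference of 0.65 (adjusted p = 0.275) and did not pass. Of the 27, 4 were higher and 5 lower at an unadjusted p under 0.05.

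Rhox5 is an X-linked homeobox gene that is sensitive to promoter DNA methylation in mouse ES cells. It read 7.99, 8.03, 7.94 and 8.02 in recombined cells, against 9.13, 9.31, 9.11 and 9.22 in wild-type cells. The arrays of each group lay close together and did not overlap, and the difference was -1.20 (SE 0.07, 2.29-fold lower, adjusted p = 7.86e-05). Unrecombined cells averaged 8.36, and recombined minus unrecombined was -0.37 (SE 0.07, adjusted p = 0.0106). That call and its size rest on leaving out array 2, with which the difference was -0.012 (adjusted p = 0.993). The remaining 9 measured genes of the DNA methylation list did not pass. Dnmt1, the maintenance methyltransferase, had a difference of -0.03 (adjusted p = 0.912). The list's median was -0.06, and 2 of its 10 genes were lower at an unadjusted p under 0.05.

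A probe set shared by the X-linked Xlr3a, Xlr3b and Xlr3c read 5.65, 5.98, 5.13 and 6.11 in recombined cells, against 7.47, 7.45, 7.65 and 7.49 in wild-type cells. The difference was -1.80 (SE 0.18, adjusted p = 0.00182), without overlap, and the values cannot be assigned to 1 of the genes. Unrecombined cells read lower still, at 5.12, 5.01 and 4.78. Calml4, of a calmodulin-like protein, read 6.94, 6.57, 6.73 and 6.63 in recombined cells, against 8.58, 8.81, 8.14 and 8.38 in wild-type cells. It fell by 1.76 (SE 0.14, 3.38-fold lower, adjusted p = 0.000636) and did not overlap, with unrecombined cells between them at 7.43, 7.41 and 7.30.

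**Figure D3:**
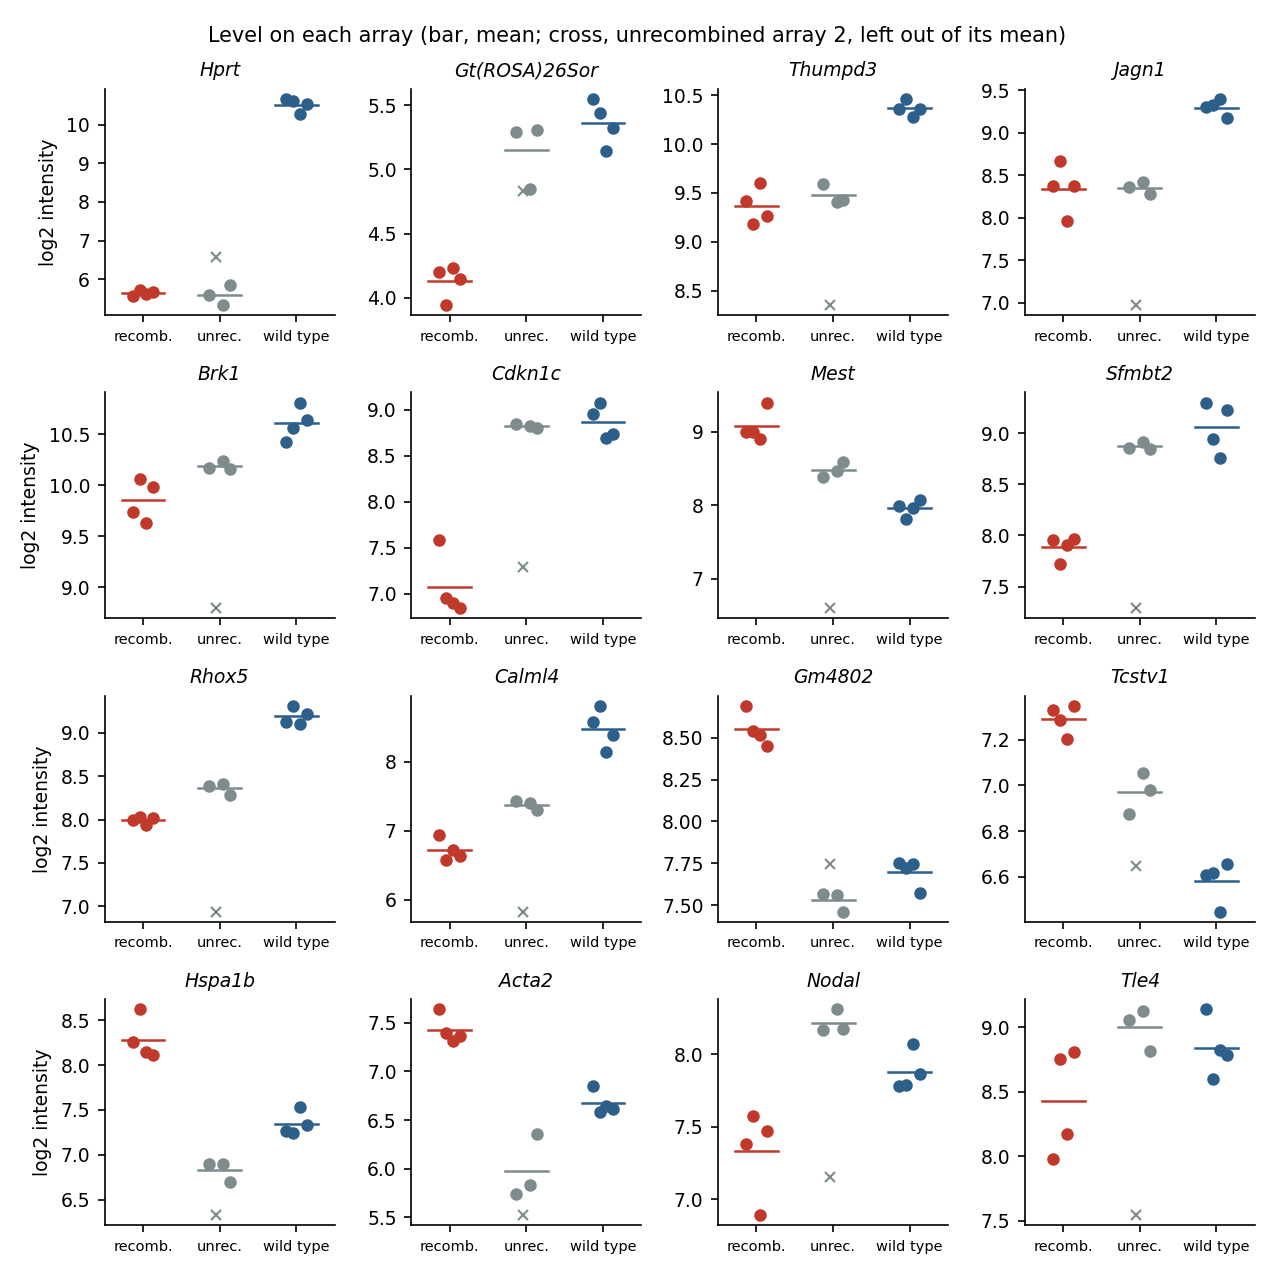
Log2 intensity on each array for 16 genes in recombined Hex, unrecombined Hex and wild-type cells (4 arrays each; bars are means, and crosses are unrecombined array 2, which is left out of its mean). Recombined and wild-type arrays do not overlap in any panel except Tle4; unrecombined arrays lie near the recombined level in Hprt, Thumpd3 and Jagn1, and within or near the wild-type range in Cdkn1c and Sfmbt2.

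Genes that rose included a cluster on chromosome 13. Tcstv1, known from the mouse embryo at the 2-cell stage and from ES cells in a similar state, read 7.33, 7.29, 7.20 and 7.35 in recombined cells, against 6.61, 6.62, 6.45 and 6.66 in wild-type cells. The groups did not overlap, and the difference was 0.71 (SE 0.08, 1.63-fold higher, adjusted p = 0.00250). Tcstv3, of the same family, rose by 0.45 (SE 0.08, adjusted p = 0.0464), a call lost without any 1 of the 8 arrays. Between them in the order of measured genes, Gm20767 rose by 0.71 (SE 0.08, adjusted p = 0.00250) and AF067061 by 0.81 (SE 0.09, adjusted p = 0.00266). These 4 genes stand at places 297, 298, 299 and 301 among the measured genes of the chromosome, and all 4 probe sets are marked as shared within a family, so they may read the same transcripts. Unrecombined cells lay between the groups in Tcstv1, at 6.87, 7.06 and 6.98, and recombined cells exceeded them by 0.32 (SE 0.08, adjusted p = 0.0277). With array 2 kept Tcstv1 did not pass in that comparison (adjusted p = 0.179).

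Other predicted genes rose too. Gm4802 on chromosome 16 read 8.69, 8.54, 8.51 and 8.45 in recombined cells, against 7.76, 7.72, 7.75 and 7.57 in wild-type cells. Its rise of 0.85 (SE 0.08, adjusted p = 0.00172) was also seen against unrecombined cells (1.02, SE 0.08, adjusted p = 2.65e-05). Gm2022 on chromosome 12 rose by 0.74 (SE 0.11, adjusted p = 0.0192), a call lost without recombined array 2 or wild-type array 1 or 4. The Gm2022 probe set is also marked as shared within a family, so its reading may not come from that gene alone. A probe set shared by Gm428 and 5 other predicted genes rose by 0.56 (SE 0.09, adjusted p = 0.0398).

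Both stress-inducible Hsp70 genes rose. Hspa1b read 8.26, 8.62, 8.15 and 8.11 in recombined cells, against 7.27, 7.24, 7.53 and 7.34 in wild-type cells, and Hspa1a read 7.62, 7.73, 7.59 and 7.66 in recombined cells, against 7.13, 7.04, 7.16 and 7.12 in wild-type cells. Neither gene's arrays overlapped. Hspa1b rose by 0.94 (SE 0.12, 1.92-fold, adjusted p = 0.00798) and Hspa1a by 0.54 (SE 0.07, 1.45-fold, adjusted p = 0.00909). The call of Hspa1b was lost without wild-type array 4 (adjusted p = 0.0509), and that of Hspa1a without wild-type array 1, 2 or 4. Against unrecombined cells the difference was 1.45 for Hspa1b (SE 0.12, adjusted p = 4.10e-05) and 0.66 for Hspa1a (SE 0.08, adjusted p = 0.000805).

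Hspa1b and Hspa1a are neighbouring copies on chromosome 17, and their start regions are printed because both rose and these regions are nearly the same. The 2 probe sets may read each other's transcripts, which was not tested, since transcript and probe sequences were not compared. Each window runs from 250 bases before to 50 after the start in RefSeq (GRCm38.p6, minus strand), at chr17:34959189-34959488 for Hspa1b and chr17:34972107-34972406 for Hspa1a. Capitals mark the 4 of 300 bases that differ (98.7% identical).
Hspa1b: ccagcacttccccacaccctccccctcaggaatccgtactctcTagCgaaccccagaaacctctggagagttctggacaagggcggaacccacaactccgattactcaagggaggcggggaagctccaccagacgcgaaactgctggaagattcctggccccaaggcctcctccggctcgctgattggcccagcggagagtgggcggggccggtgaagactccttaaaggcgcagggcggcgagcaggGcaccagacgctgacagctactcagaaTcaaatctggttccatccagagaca
Hspa1a: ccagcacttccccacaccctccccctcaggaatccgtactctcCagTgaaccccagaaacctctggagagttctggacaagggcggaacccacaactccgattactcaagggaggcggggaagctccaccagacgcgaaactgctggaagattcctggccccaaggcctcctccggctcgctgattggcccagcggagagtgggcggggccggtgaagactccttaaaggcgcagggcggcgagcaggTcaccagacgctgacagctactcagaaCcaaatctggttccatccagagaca
Each window held 1 match of GAANNTTC, a core of the heat shock element that reads the same on both strands, where 7.95% of the 27025 promoter windows of that length held one. The match is a description of the letters only.

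The rest of the chaperone list did not rise. Of 23 measured genes 2 rose and 0 fell, and the median difference was -0.12, against 0.04 over all genes. Hspa5, of the endoplasmic reticulum chaperone BiP, had a difference of -0.58 (SE 0.13, adjusted p = 0.118), and Hspa8, of the constitutive Hsc70, one of -0.45 (SE 0.11, adjusted p = 0.136). Both were lower without overlap between the arrays. At an unadjusted p under 0.05, 2 genes of the list were higher and 8 lower.

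The muscle actin genes Acta2 and Actc1 rose. Acta2, smooth muscle actin, read 7.64, 7.40, 7.31 and 7.36 in recombined cells, against 6.85, 6.58, 6.65 and 6.61 in wild-type cells. It rose by 0.75 without overlap (SE 0.10, 1.68-fold, adjusted p = 0.00798), a call lost without wild-type array 2 or 4, and exceeded unrecombined cells by 1.45 (SE 0.14, adjusted p = 0.000110). One probe set of Actc1, cardiac actin, rose by 0.62 (SE 0.10, adjusted p = 0.0302), and its brighter one had a difference of 0.14 (adjusted p = 0.582). Pmp22, a myelin membrane protein gene, rose by 0.49 (SE 0.08, adjusted p = 0.0411), while its other probe set had a difference of 0.20 (adjusted p = 0.335). Cd99, of a cell-surface adhesion protein, rose by 0.52 (SE 0.09, adjusted p = 0.0469). With 1 array left out Actc1 kept its call in 2 of 8 fits, Pmp22 in 1 and Cd99 in 0.

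Acta2 was the only gene of the 26 on the fibroblast and feeder cell list that rose, and 0 fell. Twist1 had a difference of 0.26 (adjusted p = 0.200) and Myl9, a smooth muscle myosin light chain gene, one of 0.31 (adjusted p = 0.181). The list's median was 0.15, and 6 of its 26 genes were higher and 0 lower at an unadjusted p under 0.05, where 5.58% of all genes were higher and 10.9% lower. Of 8 defining feeder markers 3 lay above the median probe set (Col1a1, Col1a2 and Thy1). Their summed intensity over all 8 ranged from 1101 to 1444 on the recombined arrays and from 1001 to 1136 on the wild-type arrays. The part of such cells in the rise of Acta2 was not tested, and in these bulk samples more cells of a type and more RNA per cell cannot be told apart.

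Further falls were found in single genes. Tfpi, of the inhibitor of the tissue factor pathway of coagulation, read 7.18, 7.06, 6.87 and 7.12 in recombined cells, against 7.94, 7.97, 7.82 and 8.04 in wild-type cells, a difference of -0.88 (SE 0.09, 1.85-fold lower, adjusted p = 0.00182). Myh9, non-muscle myosin heavy chain, read 8.77, 8.68, 8.75 and 8.59 in recombined cells, against 9.60, 9.51, 9.34 and 9.64 in wild-type cells, a difference of -0.83 (SE 0.09, adjusted p = 0.00210). Neither overlapped. A second probe set of Myh9 was also lower but did not pass (-0.64, adjusted p = 0.210), and in the called probe set the recombined level differed from the unrecombined one by -0.05 (95% interval -0.24 to 0.14).

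Ccn2, a secreted growth regulator also called CTGF, fell by 0.75 (SE 0.09, adjusted p = 0.00737), a call lost without wild-type array 4 (adjusted p = 0.0509). It was the only one of 22 immediate-early genes that passed. Egr1 had a difference of -0.47 (adjusted p = 0.145) and Phlda1 one of 0.54 (adjusted p = 0.152). Nid2, of a basement membrane protein, fell by 0.75 (SE 0.12, adjusted p = 0.0283), and Tek, the angiopoietin receptor of endothelial cells, by 0.60 (SE 0.09, adjusted p = 0.0168). Tek was read below the median probe set and was the only one of 25 blood and endothelium genes that passed, with a list median of 0.10. The kinase gene Pim2 fell by 0.90 (SE 0.12, adjusted p = 0.0116), a call lost without wild-type array 2 or 4, and its dimmer probe set had a difference of -0.07 (adjusted p = 0.700). Bms1, of a ribosome assembly factor, fell by 0.73 (SE 0.13, adjusted p = 0.0483). With 1 array left out Tek kept its call in 3 of 8 fits, Nid2 in 2 and Bms1 in 1.

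A further group of called genes falls outside the naming rule and is named after its values were seen. Dnajc21, a ribosome-associated co-chaperone gene, fell by 0.73 (SE 0.11, adjusted p = 0.0192), and Wnk1, of a kinase that controls ion transport, by 0.73 (SE 0.13, adjusted p = 0.0469). The others were Ggct, Trim59, Sbno1, Tiam1, Xpot, Zfp36l2, Ndufaf4, Styx, Zdhhc6 and Mrpl9, with differences from -0.64 in Ggct to -0.38 in Mrpl9. Xpot exports tRNA from the nucleus, Zfp36l2 binds AU-rich RNA, and Mrpl9 is a protein of the mitochondrial ribosome. Of these 12 genes Dnajc21 kept its call in 4 of the 8 fits that left out 1 array, Ggct and Sbno1 in 2, Trim59, Tiam1 and Styx in 1, and the other 6 in 0.

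Hhex itself did not differ detectably. Its probe set read 6.11, 6.19, 6.46 and 6.23 in recombined cells, against 6.11, 6.23, 6.15 and 6.08 in wild-type cells. The groups overlapped at a level below the median probe set, and the difference was 0.10 (SE 0.09, 95% interval -0.09 to 0.30, adjusted p = 0.549). Against unrecombined cells, at 6.32, 6.24 and 6.05, it was 0.04 (95% interval -0.16 to 0.25). The labels do not say whether the inserted Hex carries the sequence that this probe set reads, so it is no check of the insertion.

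Tle4, of a Groucho co-repressor that dampens Wnt target genes, read 7.98, 8.75, 8.17 and 8.8 in recombined cells, against 9.14, 8.60, 8.82 and 8.78 in wild-type cells. Recombined arrays 1 and 3 were low, while arrays 2 and 4 lay within the wild-type range. The difference was -0.41 (SE 0.19, 95% interval -0.83 to 0.01, adjusted p = 0.355). Recombined cells differed from unrecombined cells, at 9.06, 9.13 and 8.81, by -0.57 (SE 0.19, adjusted p = 0.104). Of the 4 Groucho/TLE genes measured 0 passed, with a median of -0.26, and 1 was lower at an unadjusted p under 0.05. Tle1 was lower without overlap, by a difference of -0.36 (SE 0.09, adjusted p = 0.140).

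Nodal, of a TGF-β family ligand that patterns the early embryo and is secreted by ES cells, read 7.38, 7.57, 6.89 and 7.47 in recombined cells, against 7.78, 7.79, 8.07 and 7.86 in wild-type cells. All recombined arrays were lower, and the difference was -0.55 (SE 0.14, 95% interval -0.86 to -0.23), which did not pass (adjusted p = 0.150). Against unrecombined cells, at 8.17, 8.31 and 8.18, the difference was -0.89 (SE 0.14, adjusted p = 0.00294) and did pass. With array 2 kept it was -0.62 and did not pass (adjusted p = 0.477). Over the 25 measured genes of Nodal and TGF-β signalling 0 passed against wild type, with a median of 0.01. Of the 25, 2 were higher and 3 lower at an unadjusted p under 0.05. Tgif1, of a repressor that binds Smad proteins, had a difference of -0.39 (adjusted p = 0.148), and Lefty1, a Nodal antagonist gene, one of 0.33 (adjusted p = 0.413).

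The start regions of Tle4 and Nodal are printed because both genes were among those of interest to the study. They were searched on both strands for ATTAA, a homeodomain core sequence, and capitals mark matches (GRCm38.p6, RefSeq; Tle4 on the minus strand at chr19:14598134-14598433, Nodal on the plus strand at chr10:61417722-61418021).
Tle4: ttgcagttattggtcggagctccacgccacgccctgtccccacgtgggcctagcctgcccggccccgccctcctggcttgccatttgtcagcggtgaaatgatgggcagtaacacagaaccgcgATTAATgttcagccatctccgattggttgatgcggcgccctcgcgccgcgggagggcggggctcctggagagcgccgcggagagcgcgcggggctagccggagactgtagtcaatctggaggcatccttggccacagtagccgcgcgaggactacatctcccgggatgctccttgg
Nodal: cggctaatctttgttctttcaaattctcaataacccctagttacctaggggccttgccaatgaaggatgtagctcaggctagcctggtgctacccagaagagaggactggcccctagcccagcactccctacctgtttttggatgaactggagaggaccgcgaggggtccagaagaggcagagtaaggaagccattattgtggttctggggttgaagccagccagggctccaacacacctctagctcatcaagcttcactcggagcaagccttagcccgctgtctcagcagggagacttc
The Tle4 window held 2 matches that overlap, 1 on each strand, and the Nodal window 0, while 27.5% of all 27025 windows held at least 1. Among the named genes with a window, 3 of the 8 with the largest rises and 2 of the 11 with the largest falls held it. Shorter or other homeodomain sequences were not searched, so a window with 0 matches lacks only these 5 letters. It also says nothing about binding elsewhere.

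Pluripotency genes were mostly not called. Tfcp2l1, a transcription factor of naive ES cells, read 8.66, 8.55, 8.49 and 8.73 in recombined cells, against 9.31, 9.17, 9.17 and 9.35 in wild-type cells. It fell by 0.64 without overlap (SE 0.08, 1.56-fold lower, adjusted p = 0.00892), a call lost without wild-type array 1 or 4. Its dimmer probe set had a difference of -0.01 (adjusted p = 0.946). It was the 1 gene of 24 that passed, and the list's median was -0.14, with 0 genes higher and 8 lower at an unadjusted p under 0.05, where 0.497% of all genes were called and 10.9% lower at the unadjusted threshold. Mycn had a difference of -0.51 (adjusted p = 0.0731) and Nanog one of -0.32 (adjusted p = 0.231). Esrrb, at 0.21 (adjusted p = 0.380), had a positive one.

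In LIF and STAT3 signalling 0 of 11 genes passed and the median was 0.04. Il6st, of the shared receptor chain gp130, was lower without overlap, with a difference of -0.54 (SE 0.14, adjusted p = 0.150), and was the 1 gene below an unadjusted p of 0.05. Its other probe set had a difference of 0.11. In FGF signalling 1 of 16 fell, the receptor gene Fgfr2, which is also on the trophoblast list, where it was the 1 gene of 14. Its brightest probe set read 7.58, 7.42, 7.60 and 7.45 in recombined cells, against 8.12, 8.06, 8.19 and 8.16 in wild-type cells. That is a difference of -0.62 (SE 0.08, adjusted p = 0.00619). A dim second one fell by 0.45 (adjusted p = 0.0474), and the remaining one had a difference of 0.0015 (adjusted p = 0.995). The medians were 0.11 for the FGF list and 0.05 for the trophoblast list.

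Genes of anterior and visceral endoderm, where Hex is an early marker, did not pass. In the anterior endoderm and head organizer list 0 of 12 passed, with a median of 0.17. The Wnt antagonist gene Dkk1 had a difference of 0.18 (adjusted p = 0.340), and the homeobox genes Lhx1 and Hesx1 had differences of 0.31 (adjusted p = 0.265) and 0.25 (adjusted p = 0.201). Of these 12 genes 4 were higher and 0 lower at an unadjusted p under 0.05, and 4 lay above the median probe set. In primitive and visceral endoderm 0 of 34 passed, with a median of 0.12, 5 genes higher and 1 lower at an unadjusted p under 0.05. Col4a1, a basement membrane collagen gene, read 8.82, 8.16, 8.58 and 8.20 in recombined cells, against 8.01, 7.81, 7.57 and 7.81 in wild-type cells. It was higher on every recombined array, by a difference of 0.64 (SE 0.15, adjusted p = 0.128) that did not pass. It exceeded unrecombined cells by 1.0 (SE 0.16, adjusted p = 0.00295), also with array 2 kept (adjusted p = 0.0176). The keratin gene Krt8 had a difference of 0.37 against wild type (adjusted p = 0.227).

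Positive medians were also found in other lists. They were 0.11 for primitive streak and mesoderm (0 of 27 passed), 0.13 for neuroectoderm (0 of 23), 0.09 for Wnt signalling (0 of 36) and 0.08 for BMP and Id genes (0 of 20). At an unadjusted p under 0.05 the higher and lower genes numbered 3 and 0, 3 and 1, 5 and 3, and 0 and 0 in the same order. Genes above the median probe set numbered 8, 10, 17 and 9 in that order, and 4860 among all 8251 genes. The median difference of all probe sets at or below the median intensity was 0.08, and that of the probe sets above it -0.01. Its part in the list medians was not tested.

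Growth and metabolism lists held few calls. In the cell cycle list Cdkn1c was the 1 gene of 36 that passed, and the median was -0.15. Mki67, a proliferation marker gene, had a difference of -0.47 (adjusted p = 0.0634), and 0 of the 36 genes were higher and 12 lower at an unadjusted p under 0.05, against 5.58% and 10.9% of all genes. In 7 of the 36 genes the recombined arrays lay below the wild-type arrays without overlap, as they did in 6.54% of all genes. In cholesterol synthesis and transport 1 of 23 fell. It was Idi1, of isopentenyl-diphosphate isomerase, which read 9.10, 8.90, 8.91 and 9.10 in recombined cells, against 9.63, 9.68, 9.42 and 9.58 in wild-type cells. The difference was -0.58 (SE 0.09, adjusted p = 0.0245), kept in 2 of the 8 fits that left out 1 array. Hmgcs1 and Sqle, of enzymes of the same pathway, had differences of -0.64 (adjusted p = 0.0597) and -0.49 (adjusted p = 0.0721), without overlap.

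Among the remaining lists, 0 of 26 hypoxia and glycolysis genes passed (median -0.07), 0 of 19 p53 and stress genes (median -0.01) and 0 of 27 genes of interferon response and antigen presentation (median -0.02). The same held for 0 of 32 adhesion genes (median 0.07) and 0 of 9 germ cell precursor genes (median -0.11). At an unadjusted p under 0.05 the higher and lower genes of these lists numbered 0 and 5, 2 and 4, 0 and 1, 1 and 3, and 0 and 2 in that order. Mdm2, of the ligase that degrades p53, had a difference of -0.47 (adjusted p = 0.0744). The chromosome 11 genes Calcoco2, Dynll2 and Dnajc7 had a median of 0.08, and 0 of 3 passed at either threshold. Dynll2 read 8.56, 10.02, 8.74 and 9.29 in recombined cells, against 9.52, 8.61, 8.86 and 8.10 in wild-type cells, with wide overlap, while unrecombined cells read 7.05, 6.36 and 7.01.

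**Figure D4:**
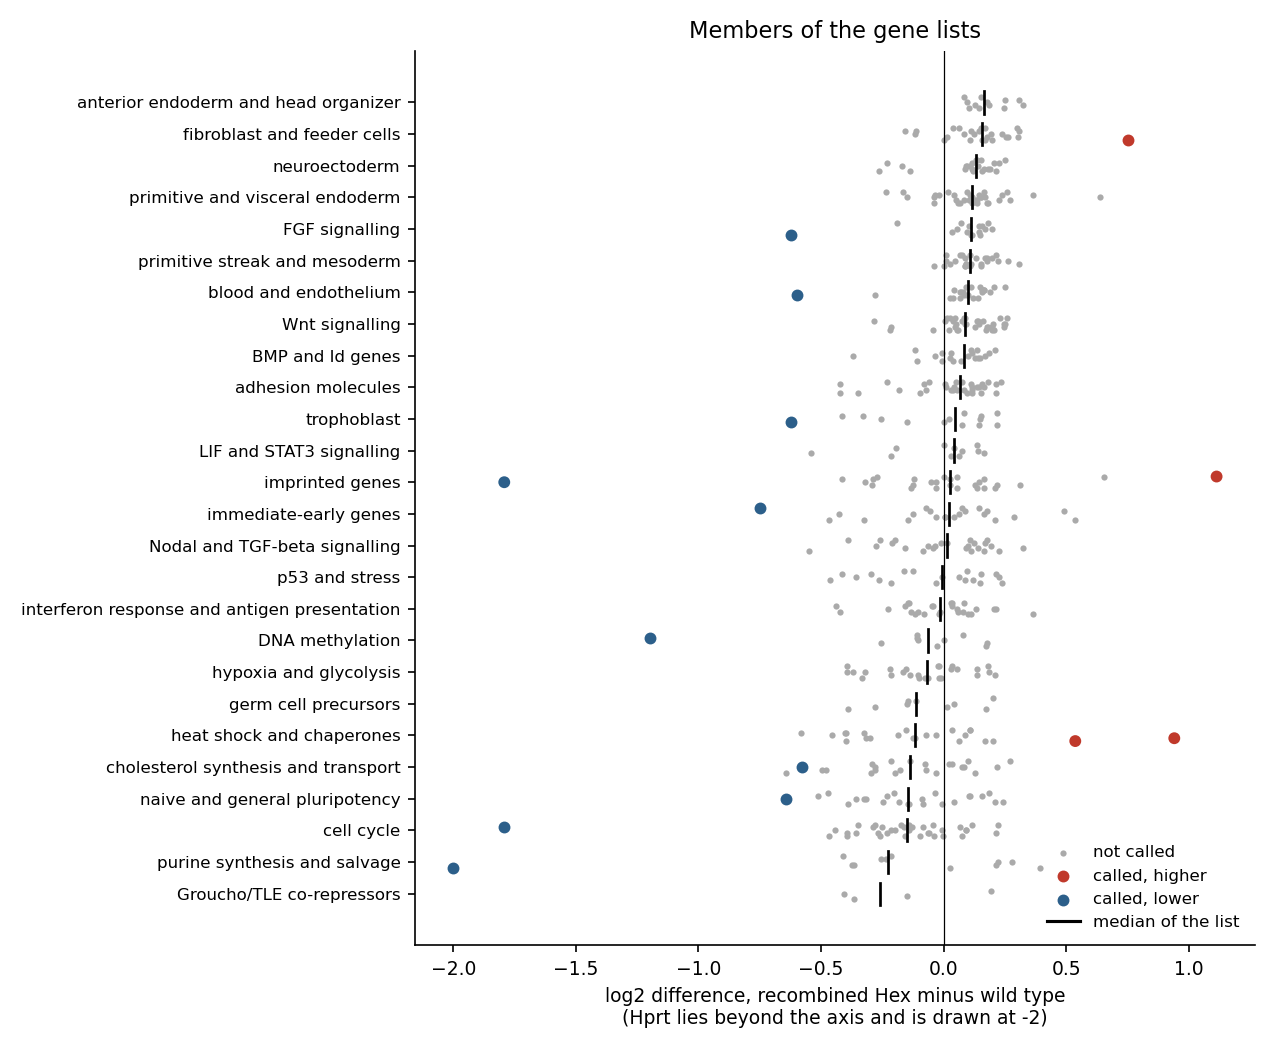
Log2 difference of recombined Hex minus wild type for each measured member of 26 gene lists (grey, not called; red, called higher; blue, called lower; black bar, median of the list). Hprt, at -4.88, is drawn at the left end of the axis; list medians run from -0.26 for Groucho/TLE to 0.17 for anterior endoderm.

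Set beside the unrecombined line, genes called against wild type differed in how they stood to unrecombined cells; both comparisons share the recombined arrays. Hspa1b, Hspa1a, Acta2, Actc1 and Gm4802 rose against both wild-type and unrecombined cells, and Gt(ROSA)26Sor fell against both, with array 2 of the unrecombined cells left out or kept. Hprt, Thumpd3, Jagn1, Myh9 and Tek (-0.03 against unrecombined, adjusted p = 0.860) fell against wild type, and against unrecombined cells each had a 95% interval that included 0.

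Over whole chromosomes, the probe sets of chromosome 8 above the median intensity tended upward. Of 320, 75.3% were higher in recombined cells, with a median difference of 0.10, where the medians of the other chromosomes ran from -0.15 to 0.05 and their shares from 28% to 60.8%. None of its 548 probe sets was called by limma, with 51 higher and 5 lower at an unadjusted p under 0.05. Relative to the other chromosomes on the same array, the median level of chromosome 8 was 0.086, 0.136, 0.083 and 0.104 in recombined cells, against -0.023, 0.005, 0.018 and -0.008 in wild-type cells. The arrays did not overlap (two-sided exact permutation p = 0.0286, the smallest that 4 against 4 arrays can give), and adjusted over the 20 chromosomes tested p was 0.122. Chromosome 7 also did not overlap, with a median difference of 0.05. Unrecombined cells had -0.086, -0.070 and -0.123 for chromosome 8, below the wild-type arrays. DNA copy number was not measured.

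**Figure D5:**
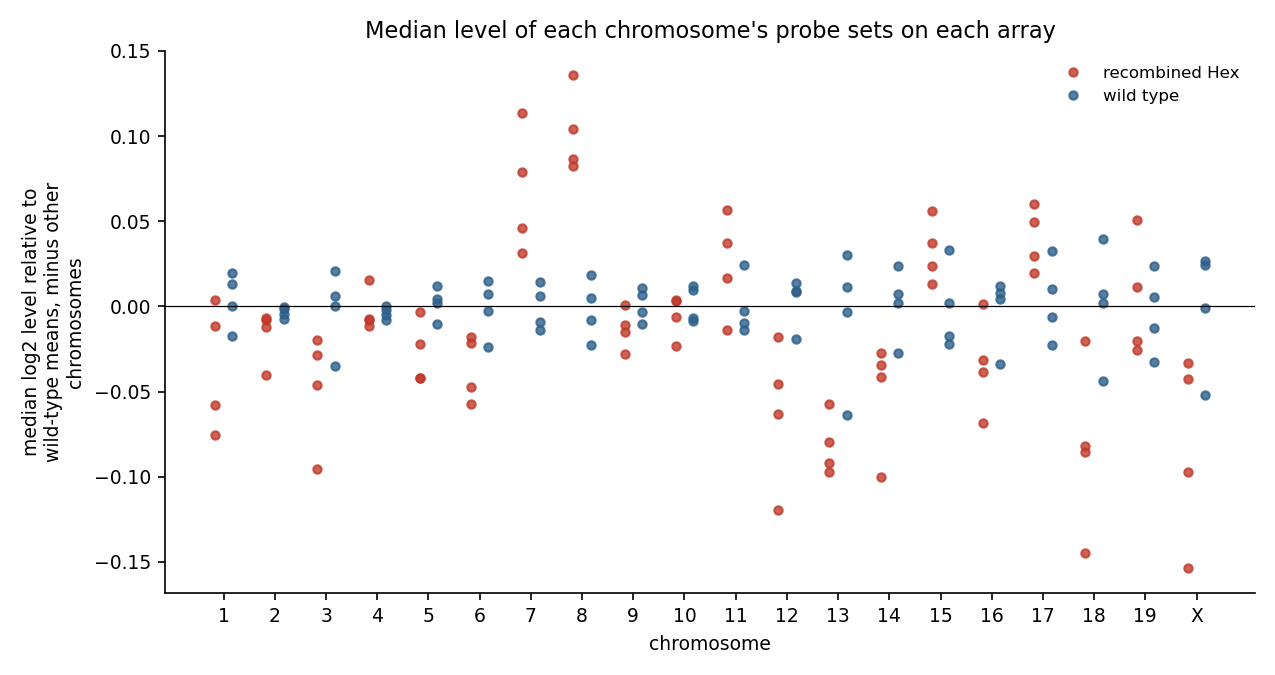
Median log2 level of each chromosome's probe sets above the median intensity, relative to the wild-type means and to the other chromosomes (vertical axis), on each recombined (red, left) and wild-type (blue, right) array for 20 chromosomes. On chromosome 8 the 4 recombined arrays lie between 0.083 and 0.136, above all 4 wild-type arrays.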

How the data were processed

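Total RNA of 44 mouse ES cell samples was measured on Affymetrix MG-U74Av2 arrays. The authors deposited 1 intensity per probe set and array on a linear scale. The submitters' processing notes name RMA, without a version, which corrects background, normalises arrays by quantiles and summarises probes; which arrays were normalised together is not given in the sources used here. The deposited intensities were converted to log2 with no pseudocount. They are relative, and no depth applies. Levels of different probe sets were set together to choose a gene's brightest one, to place levels against the median probe set and to sum feeder markers. Such a sum weighs the brightest probe sets most.

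Of 12488 probe sets 66 controls were left out and 12422 tested without a filter. GEO's platform annotation gave 10833 of them 1 symbol, 396 several and 1193 none; 10817 of the first kind matched the RefSeq table of GRCm38.p6 by Entrez ID, used for names and gene order (0 symbols changed, 8251 distinct symbols). Promoter windows are RefSeq's. Groups came from the titles. In 4 arrays the title contradicts itself and they stayed unassigned.

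The test was limma 3.58.1 (R 4.3.3), lmFit and eBayes on the 8 arrays (6 residual degrees of freedom). Recombined and unrecombined Hex were compared in a fit of 12 arrays with wild type, as designed, and again without unrecombined array 2; the text gives the second unless stated. List counts use each gene's brightest probe set. Genes were named by a rule: Hhex, Tle4, Nodal and Gt(ROSA)26Sor, then up to 15 rises and 15 falls of largest size among called, non-overlapping probe sets with 1 symbol, and up to 4 called genes of a list or 2 as values; a few others are given as values. The comparison, the 28 gene lists and the rule were chosen with earlier results of these data known. The procedure was tested on simulated data. Alternatives covered the arrays fitted, normalisation, intensity filter, variance moderation, array weights, replicate block, the β-actin ratio as a covariate, thresholds and left-out arrays. Plots used Python 3.11.15 and matplotlib 3.10.9.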

Additional observations from a re-analysis of the deposited data

Results flagged for a closer look

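In groups of 4 arrays, a sample was marked when its gap to the nearest other array exceeded Dixon's 95% critical share of the group's range. Of 154 groups of named and listed values 4 were marked, and chance marks about 1 in 20 groups. Cdkn1c, the gene of the kinase inhibitor p57, read 7.59 on recombined array 1, against 6.84 to 6.96 on the other recombined arrays; its fall kept its call with any 1 array left out. Tgif1, of a Smad-binding repressor, read 10.24 on recombined array 1, with 9.87 to 9.93 on the others, and 10.50 on wild-type array 2, with 10.31 to 10.33 on the others. Styx, of a catalytically inactive phosphatase, read 6.97 on wild-type array 3, with 7.15 to 7.17 on the others.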

How the results depend on the processing

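All 48 called probe sets kept their sign under the up to 22 alternatives run for each, but 4 passed under every one: Gt(ROSA)26Sor, Gm4802, Tcstv1 and Hprt. The count of 48 became 170 with 39 arrays fitted (array 2 of unrecombined Hex left out), 5 with the 12 arrays of recombined, unrecombined and wild-type cells, 116 with array weights, 536 with the β-actin 3′/5′ ratio in the model, 18 with an unmoderated test, 21 at an adjusted p under 0.01 and 114 under 0.10. Leaving out 1 of the 8 arrays gave 16 to 45. The replicate numbers do not pair the arrays (correlations of deviations 0.39, -0.00, -0.62 and 0.12), and a replicate block gave 12 calls. With 40 arrays 33 passed, and after quantile normalisation 39. Nodal passed with 39 arrays and with the β-actin covariate (adjusted p = 0.00761), and its adjusted p ranged to 0.952 with 12 arrays; Tle4 passed under none. Dnajc7, at -0.13, ran from -0.23 to 0.0036 with 1 array left out, the last without recombined array 1. Recombined minus unrecombined values changed sign without unrecombined array 2 in Hprt (0.049), Thumpd3 (-0.11), Jagn1 (-0.011), Myh9 (-0.052), Brk1 (-0.33), Ccn2 (-0.26) and Nid2 (-0.34). The cause of these shifts was not tested. No count of molecules underlies the intensities, and probe sets below the median intensity can hide larger differences.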
